A study of Mus musculus with 12 samples.

Results

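The Krüppel-like factors are transcription factors with zinc fingers at their carboxyl end. The 10 genes described here (Klf2, Klf3, Klf4, Klf5, Klf6, Klf7, Klf9, Klf10, Klf13 and Klf16) were chosen by name, as the rows of a raw count table whose mouse Ensembl identifiers map to these symbols. They are 10 of the 17 Klf genes that the annotation names and 10 of 55487 genes in the table, and all 10 passed the filter on low counts among 12897 genes tested. The list was drawn up with earlier results of these data known, so its counts are descriptions and not independent evidence.

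The libraries came from im_TEC, mouse tubular epithelial cells of the kidney that carry a conditional SV40 large T antigen. The 4 groups of 3 libraries were cells labelled Nnmt-OE (transduced to express Nnmt, the nicotinamide N-methyltransferase) with TGFβ, mock-transduced cells with TGFβ, labelled Nnmt-OE cells without TGFβ, and mock cells without TGFβ. All were selected with puromycin. Cells of this kind were grown at 33 °C in 10 ng/mL of interferon γ and later held at 37 °C without it for 7 days. The medium held hydrocortisone (36 ng/mL), triiodothyronine (40 pg/mL) and EGF (20 ng/mL), and TGFβ, where present, was at 10 ng/mL over 48 h. The labels do not say whether the cells were 1 clone or whether replicates were separate cultures, and each p therefore reflects the scatter among these libraries, possibly technical only. The library codes of the groups do not interleave, so an effect of construct or of TGFβ and one of handling cannot be told apart.

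Krüppel-like factors bind GC boxes and CACCC boxes in promoters and enhancers, sites they share with the related Sp factors. Their zinc fingers are much alike, while the rest of the protein differs: Klf3, Klf8 and Klf12 recruit the corepressor CtBP, Klf9, Klf10, Klf11, Klf13, Klf14 and Klf16 bind Sin3, and Klf2, Klf4, Klf5, Klf6 and Klf7 are mostly known as activators. In kidney tubules Klf4, Klf5 and Klf6 have been studied in epithelial differentiation, growth and injury, and TGFβ, a driver of fibrosis, acts on some of the family in other cells.

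Between 4733846 and 7247413 reads fell in genes per library. Nnmt itself gave 27.6 CPM (counts scaled to a common library size in reads within genes) in labelled Nnmt-OE cells with TGFβ, against 30.3 CPM in mock cells with TGFβ. Without TGFβ it gave 25.3 CPM in labelled Nnmt-OE cells, against 20.3 CPM in mock cells, and neither difference passed the test (edgeR adjusted p = 0.998 with and 0.897 without TGFβ). A 3′ tag can miss a construct that lacks the gene's own 3′ end, so these counts do not check the label. Of 14 markers of tubular epithelium, 9 reached 1 CPM in 3 or more libraries; Pax2 averaged 298 CPM and Pax8 243 CPM, but Epcam and Cdh1 had 0 reads in all 12 libraries and Slc34a1 had 1. Of 7 endothelial markers, Pecam1, Cdh5, Kdr, Tek and Tie1 had 0 reads in all 12, Emcn had 1 read in 1 library, and Flt1 averaged 1.63 CPM. The 7 summed to 1.21 to 7.09 CPM in labelled Nnmt-OE cells with TGFβ, 0.414 to 1.59 in mock cells with TGFβ, 0 to 1.47 in labelled Nnmt-OE cells and 0 to 1.91 in mock cells. Among leukocyte markers, Csf1r (71.7 CPM) and Cd68 (7.64 CPM) were measured, while Ptprc had 2 reads and Cd3e and Adgre1 had 0. On principal components, mock replicate 1, mock with TGFβ replicate 3 and labelled Nnmt-OE with TGFβ replicate 3 stood apart from the rest.

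The genes spanned a wide range of levels. Mean levels over the 12 libraries were 433 CPM for Klf3, 249 for Klf9, 203 for Klf6, 134 for Klf5, 130 for Klf13, 125 for Klf7, 75.4 for Klf4, 34.7 for Klf10, 27.4 for Klf16 and 1.77 for Klf2. The method reads about 1 tag per transcript, so these values are not scaled by length, and the order is that of tags. Within mock cells without TGFβ, the order by mean level was Klf3, Klf9, Klf6, Klf7, Klf5, Klf13, Klf4, Klf10, Klf16 and Klf2. In that order the ranges of Klf3 and Klf9, of Klf7 and Klf5, and of Klf5 and Klf13 overlapped, and those of the other neighbours did not. Counts ran from 1495 to 3199 reads for Klf3 and from 0 to 29 reads for Klf2. The annotation places other genes over Klf3, Klf7, Klf9 and Klf13. On the gene's own strand lay C230096K16Rik over Klf3, Mir6899 over Klf7 and Mir1192 over Klf9. On the opposite strand lay Gm20033 over Klf3, Gm26649 and Gm13748 over Klf7, and Gm27252 and E030018B13Rik over Klf13. The strand setting of the counting is not given in the sources used here. Counts of these 4 may thus include reads of their neighbours or lack reads that fell in an overlap.

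**Figure D1:**
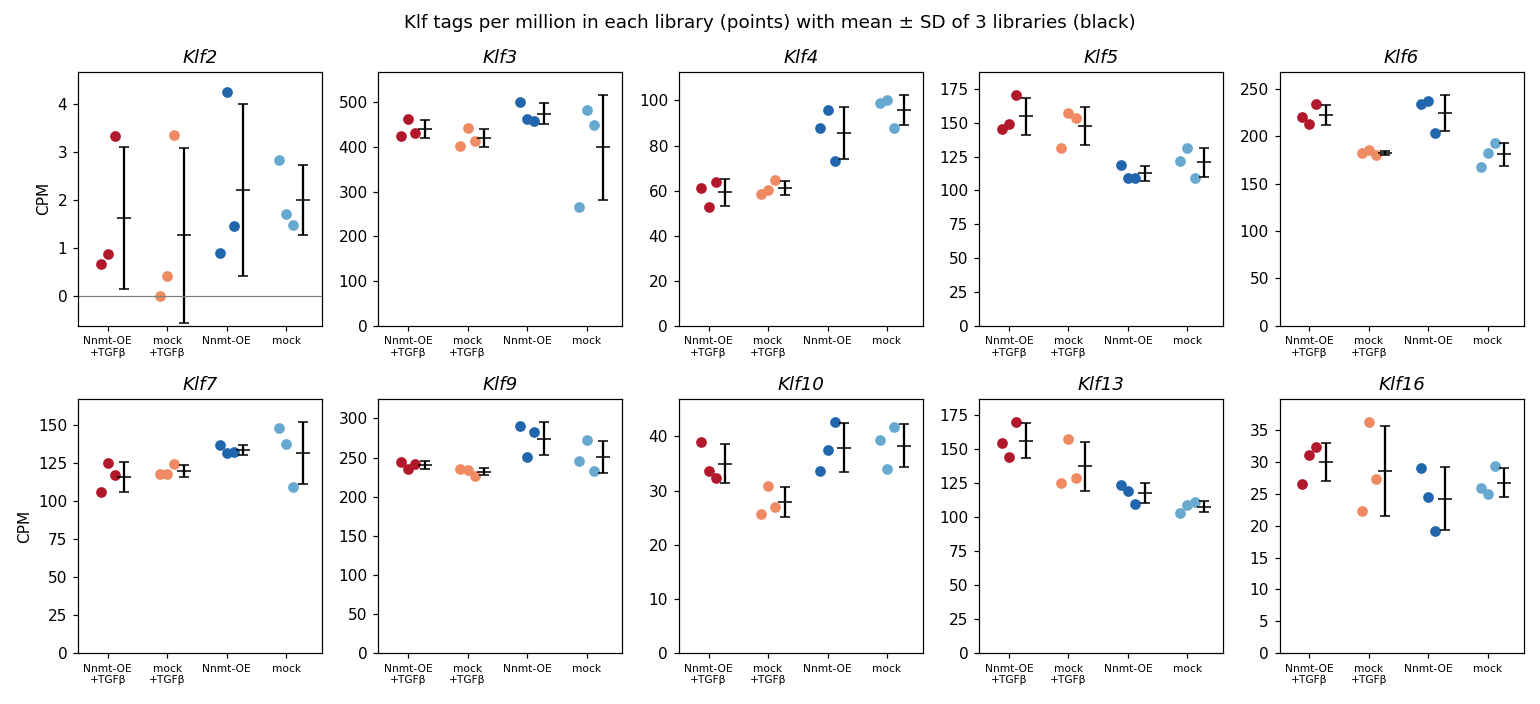
Level of each of the 10 Klf genes in CPM (y axis, linear, each panel with its own range) in the 12 libraries (points) of the 4 groups (x axis), with the mean ± SD of 3 libraries in black. Klf4 lies lower and Klf5 and Klf13 lie higher in both groups with TGFβ, and Klf6 lies higher in both labelled Nnmt-OE groups; the lower SD bar of Klf2 in mock cells with TGFβ runs below 0.

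One comparison asks what TGFβ did to these genes. Klf4 fell, and Klf5 and Klf13 rose, when the effect was averaged over both constructs; the other 7 did not pass the test. In labelled Nnmt-OE cells Klf4 fell and Klf5 rose, and in mock cells Klf4 fell. In the test across all genes (edgeR's quasi-likelihood test with Benjamini-Hochberg adjustment, threshold 0.05), 5.08% of genes were called for the average effect, 1.4% in labelled Nnmt-OE cells and 1.43% in mock cells, beside 3, 2 and 1 of the 10 Klf genes. By direction, 2 of the 10 were higher and 1 lower on average (2.48% and 2.6% of all genes), 1 higher and 1 lower in labelled Nnmt-OE cells (0.651% and 0.744%), and 1 lower in mock cells (0.76%). The median log2 fold change of the 10 was -0.08 for the average effect, against 0.00 over all genes tested.

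Klf4 is an activator of epithelial differentiation genes and one of the factors used to reprogram cells to pluripotency. It gave 61.0, 52.6 and 64.0 CPM in labelled Nnmt-OE cells with TGFβ, against 87.7, 95.9 and 73.0 CPM in labelled Nnmt-OE cells without it. In mock cells it gave 58.4, 60.3 and 64.5 CPM with TGFβ, against 98.8, 100.3 and 87.9 CPM without. All 6 treated libraries lay below all 6 untreated ones, and the lowest untreated library was labelled Nnmt-OE replicate 3; 2.38% of all genes lay lower without overlap in both constructs. Klf4 fell by 0.53 ± 0.13 on the log2 scale (SE, n = 3 each) in labelled Nnmt-OE cells (edgeR adjusted p = 0.0293). In mock cells it fell by 0.65 ± 0.13 (SE, edgeR adjusted p = 0.00406), and the average effect was a fold of 0.664 (95% interval 0.581 to 0.758, edgeR adjusted p = 3.83e-05). Summed levels of the 14 tubular markers with TGFβ were 1541 to 1695 CPM in labelled Nnmt-OE and 1500 to 1533 CPM in mock cells. Without TGFβ they were 2015 to 2061 and 1701 to 2005 CPM. Aqp1 alone averaged 854 CPM over the 12 libraries. The 7 fibroblast markers, of which 2 reached 1 CPM in 3 libraries, summed to 10.7 to 16.1 and 7.95 to 13.7 CPM with TGFβ. Without TGFβ they summed to 1.61 to 8.04 and 3.38 to 6.54 CPM. Col1a1 averaged 6.56 CPM and Col1a2 1.32 CPM over the 12 libraries. Aqp1 and these collagen genes weigh most in the sums, which do not describe each marker. The part of either sum in the fall of Klf4 was not tested. In bulk RNA, fewer cells that express a gene and less RNA of it per cell cannot be told apart. The call in labelled Nnmt-OE cells was lost without labelled Nnmt-OE replicate 1 (edgeR adjusted p = 0.107) or 2 (0.17), or without labelled Nnmt-OE with TGFβ replicate 1 (0.0811), 2 (0.192) or 3 (0.0529).

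The 250 bases before the start of Klf4 are shown because it was the gene of the 10 that fell, beside Klf13 that rose and Klf6, which came closest to the threshold for the construct. They come from the RefSeq table for GRCm38.p6, where 7 of the 10 genes matched (Klf5, Klf10 and Klf16 did not), and run 5′ to 3′ on the gene's strand with capitals marking the GC box (GGGCGG), the E-box (CACGTG) and the CRE core (TGACGT) on either strand. Klf4 lies at chr4:55532476-55532725 (minus strand), Klf13 at chr7:63938916-63939165 (minus strand) and Klf6 at chr13:5861239-5861488 (plus strand).
Klf4: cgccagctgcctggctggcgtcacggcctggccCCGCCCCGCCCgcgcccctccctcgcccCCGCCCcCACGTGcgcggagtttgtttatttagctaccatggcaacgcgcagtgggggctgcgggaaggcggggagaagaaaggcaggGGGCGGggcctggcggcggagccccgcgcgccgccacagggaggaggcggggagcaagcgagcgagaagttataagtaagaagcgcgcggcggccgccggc
Klf13: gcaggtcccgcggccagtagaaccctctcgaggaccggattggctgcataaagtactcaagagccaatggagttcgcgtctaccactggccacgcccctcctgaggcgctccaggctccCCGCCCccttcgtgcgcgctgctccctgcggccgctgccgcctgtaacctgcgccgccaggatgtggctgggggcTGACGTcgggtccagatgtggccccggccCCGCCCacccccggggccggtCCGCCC
Klf6: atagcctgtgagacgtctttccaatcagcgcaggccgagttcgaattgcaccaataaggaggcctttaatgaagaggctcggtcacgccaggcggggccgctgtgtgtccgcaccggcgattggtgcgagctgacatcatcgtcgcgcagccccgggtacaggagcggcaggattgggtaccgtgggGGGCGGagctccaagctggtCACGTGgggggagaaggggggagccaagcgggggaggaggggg
Klf4 held 4 GC boxes (GGGCGG), of which 2 share a base, and 1 E-box (CACGTG) that starts 182 bases before the start. Klf13 held 3 GC boxes, 1 CRE core (TGACGT) at 56 bases and 1 CACCC box, and Klf6 held 1 GC box and 1 E-box at 43 bases. Among 32851 promoters of the same length, 32.7% held a GC box, 6.02% an E-box, 6.47% a CRE core and 52% a CACCC box. CAGAC, the SMAD box, was not in these 3 windows and was in 42.2% of promoters. GC content was 74% for Klf4, 71.6% for Klf13 and 64.8% for Klf6. These matches describe letters and not binding.

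Klf5 is an activator known for growth of epithelial stem and progenitor cells. It gave 145, 149 and 171 CPM in labelled Nnmt-OE cells with TGFβ, against 119, 109 and 110 CPM in labelled Nnmt-OE cells without it. In mock cells it gave 131.3, 157 and 154 CPM with TGFβ, against 122, 131.1 and 109 CPM without. The treated and untreated libraries did not overlap in either construct, though in mock cells the lowest treated and the highest untreated library were nearly equal; 2.36% of all genes lay higher without overlap in both constructs, Klf5 and Klf13 among them. Klf5 rose by 0.46 ± 0.11 on the log2 scale (SE) in labelled Nnmt-OE cells (edgeR adjusted p = 0.0216), and in mock cells the log2 fold change was 0.29 ± 0.11 (edgeR adjusted p = 0.24). The difference between these effects was 0.17 on the log2 scale (95% interval -0.15 to 0.49, edgeR adjusted p = 0.999), so the effect was not shown to differ by construct. The average effect was a fold of 1.29 (95% interval 1.16 to 1.45, edgeR adjusted p = 0.00202). The call in labelled Nnmt-OE cells was lost without labelled Nnmt-OE replicate 2 (edgeR adjusted p = 0.0863) or 3 (0.124), without labelled Nnmt-OE with TGFβ replicate 2 (0.0577) or 3 (0.182), and without the 3 libraries that stood apart (0.0523).

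Klf13, a Sin3-binding factor known in T cells for activating the chemokine gene Ccl5, rose with TGFβ on average. It gave 155, 144 and 170 CPM in labelled Nnmt-OE cells with TGFβ, against 124, 120 and 110 CPM in labelled Nnmt-OE cells without it. In mock cells it gave 125, 158 and 129 CPM with TGFβ, against 103, 109 and 111 CPM without. The treated libraries lay above the untreated ones within each construct. The average fold was 1.30 (95% interval 1.16 to 1.45, edgeR adjusted p = 0.00186). Within constructs the log2 fold changes were 0.41 ± 0.11 in labelled Nnmt-OE cells (SE, edgeR adjusted p = 0.054) and 0.35 ± 0.11 in mock cells (edgeR adjusted p = 0.119), and neither passed. In labelled Nnmt-OE cells 2 of 12 fits without 1 library gained the call, and both left out a library outside that comparison. These were mock replicate 1 (edgeR adjusted p = 0.0233) and mock with TGFβ replicate 3 (0.0429). The other fits without 1 library did not call it, with the highest edgeR adjusted p (0.289) without labelled Nnmt-OE with TGFβ replicate 3. Klf13 was also called there without the filter (edgeR adjusted p = 0.0434), with the compared groups alone (0.0152) and by DESeq2 (adjusted p = 0.0241). In all, 5 of 21 alternatives called it.

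**Figure D2:**
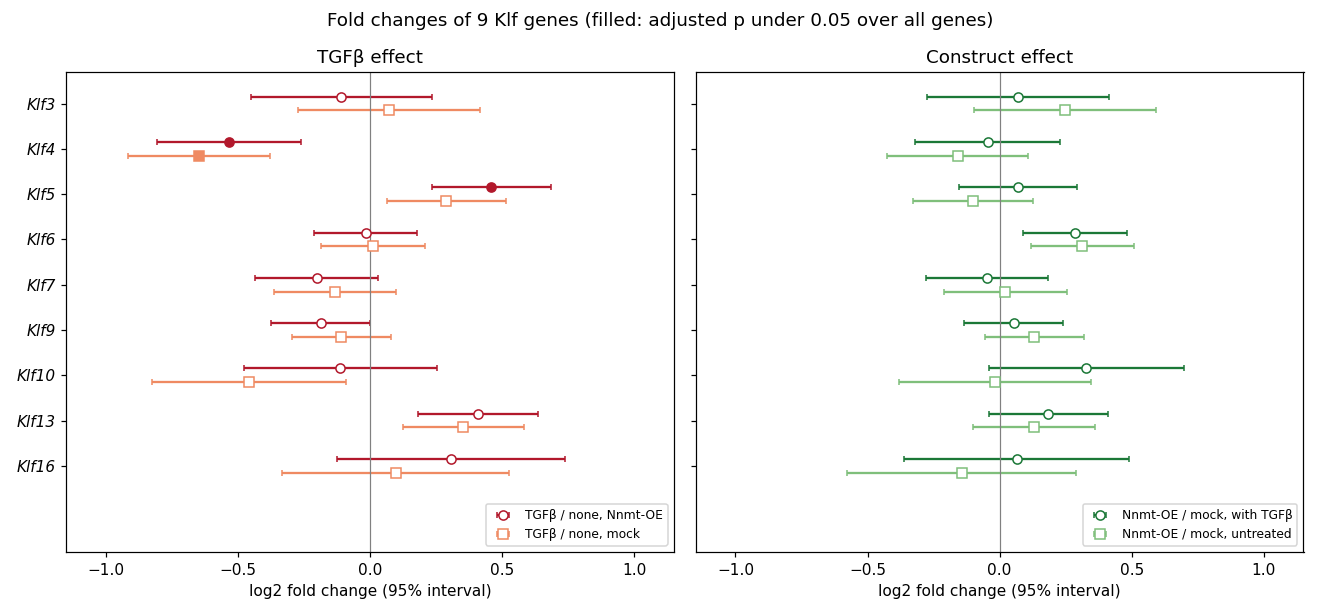
Log2 fold changes (x axis) with 95% intervals of 9 Klf genes (Klf2 is left out for its low counts), for TGFβ against none (left) and labelled Nnmt-OE against mock (right). Filled marks passed the adjusted threshold of 0.05 over all genes tested: Klf4 in both constructs and Klf5 in labelled Nnmt-OE cells.

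Klf10, first described in human osteoblasts as a gene induced early by TGFβ, was not higher after 48 h. It gave 25.6, 30.9 and 27.0 CPM in mock cells with TGFβ, against 39.3, 33.9 and 41.7 CPM in mock cells without it. In labelled Nnmt-OE cells it gave 39.0, 33.6 and 32.3 CPM with TGFβ, against 33.6, 37.4 and 42.6 CPM without. The groups did not overlap in mock cells and overlapped in labelled Nnmt-OE cells. The log2 fold changes were -0.46 ± 0.18 in mock cells (SE, edgeR adjusted p = 0.255) and -0.11 ± 0.18 in labelled Nnmt-OE cells (edgeR adjusted p = 0.891), and neither passed. Their difference was 0.35 (95% interval -0.17 to 0.86, edgeR adjusted p = 0.999).

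Klf9, a Sin3-binding factor induced by glucocorticoid and thyroid hormone, was the second in level. It averaged 241 ± 4.88 CPM in labelled Nnmt-OE cells with TGFβ, against 274 ± 21.1 CPM without it (SD, n = 3 each), and the libraries did not overlap. In mock cells it averaged 232 ± 4.56 CPM with TGFβ, against 250 ± 20.5 CPM without. The average log2 fold change was -0.15 (95% interval -0.28 to -0.02, edgeR adjusted p = 0.224), which did not pass. Klf7, an activator studied mostly in neurons, averaged 116 ± 9.90 CPM in labelled Nnmt-OE cells with TGFβ, against 134 ± 3.04 CPM without it. In mock cells Klf7 averaged 120 ± 3.90 CPM with TGFβ, against 132 ± 20.2 CPM without. Klf7 libraries did not overlap in labelled Nnmt-OE cells, and its average log2 fold change of -0.17 did not pass (edgeR adjusted p = 0.285).

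Klf3, a CtBP-recruiting repressor, had the highest level. It averaged 439 ± 20.6 CPM in labelled Nnmt-OE cells with TGFβ, against 474 ± 23.6 CPM without it, and 419 ± 20.3 CPM in mock cells with TGFβ, against 399 ± 117 CPM without. The average log2 fold change with TGFβ was -0.02 (95% interval -0.26 to 0.22), which did not pass. Klf16, the Sin3-binding factor first known as a regulator of dopamine receptor genes, averaged 30.0 ± 3.02 CPM in labelled Nnmt-OE cells with TGFβ, against 24.3 ± 4.96 CPM without it. In mock cells Klf16 averaged 28.7 ± 7.08 CPM with TGFβ, against 26.8 ± 2.32 CPM without, and the groups overlapped in both constructs. Klf2, an activator best known from endothelium under flow, gave at most 4.25 CPM in any library, and its average log2 fold change of -0.60 had a 95% interval from -2.03 to 0.82. Counted over genes, 5 of the 10 Klf genes had no overlap of treated and untreated libraries in labelled Nnmt-OE cells, where 17.6% of all genes had none. In mock cells 4 of the 10 had none, where 16.4% of all genes did.

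The other question was the construct. None of the 10 Klf genes passed the test for labelled Nnmt-OE against mock, with TGFβ, without it or on average, where 0.0233%, 0.0388% and 0.0698% of all genes passed. At an unadjusted p under 0.05, 1 of the 10 passed in each, Klf6, where 4.46%, 5.84% and 6.23% of all genes did. Klf6 came closest. It is an activator known as an early injury gene, and in liver for acting on Tgfb1 and its receptor genes. Klf6 gave 221, 213 and 234 CPM in labelled Nnmt-OE cells with TGFβ, against 182, 185 and 180 CPM in mock cells with TGFβ. Without TGFβ it gave 234, 237 and 203 CPM in labelled Nnmt-OE cells, against 168, 182 and 193 CPM in mock cells. All 6 labelled Nnmt-OE libraries lay above all 6 mock libraries; 0.558% of all genes tested had no overlap in this direction both with and without TGFβ. The log2 fold changes were 0.29 ± 0.10 with TGFβ (SE, edgeR adjusted p = 0.894) and 0.31 ± 0.10 without it (edgeR adjusted p = 0.782). The average fold was 1.23 (95% interval 1.12 to 1.35, edgeR adjusted p = 0.0813, unadjusted p = 8.67e-05). DESeq2 called it (adjusted p = 0.00726), the only call among 20 alternatives to the main fit. Of 12 fits without 1 library, 0 called it (highest edgeR adjusted p = 0.309, without labelled Nnmt-OE replicate 1). The average log2 fold change of Klf6 with TGFβ was -0.002 (95% interval -0.14 to 0.14).

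Other Klf genes were nearer the spread between replicates. Klf10 with TGFβ gave 39.0, 33.6 and 32.3 CPM in labelled Nnmt-OE cells, against 25.6, 30.9 and 27.0 CPM in mock cells, with no overlap, but its log2 fold change of 0.33 did not pass (edgeR adjusted p = 0.998). Klf3 without TGFβ gave 501, 462 and 458 CPM in labelled Nnmt-OE cells, against 266, 483 and 448 CPM in mock cells, and its log2 fold change of 0.25 became 0.02 without mock replicate 1, one of the libraries that stood apart. Klf4, Klf5 and Klf13 had average log2 fold changes for the construct of -0.10, -0.01 and 0.16, with 95% intervals of -0.29 to 0.09, -0.17 to 0.14 and -0.004 to 0.32. Of the 10 genes, 2 had no overlap between labelled Nnmt-OE and mock libraries with TGFβ (background 10.2%) and 1 without it (10.9%). In the test of whether the TGFβ effect differed by construct, 0 of 10 Klf genes and 0% of all genes passed; at an unadjusted p under 0.05, 0 of 10 and 3.88% did.

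The summed level of the 10 genes overlapped between treated and untreated cells, while the ratios of Klf5 and Klf13 to Klf4 did not. Their levels summed to 1456 ± 36.9 CPM in labelled Nnmt-OE cells with TGFβ, 1357 ± 61.2 in mock cells with TGFβ, 1487 ± 63.6 in labelled Nnmt-OE cells and 1354 ± 129 in mock cells (SD, n = 3 each). The ratio of Klf5 to Klf4 counts was 2.38 to 2.83 in labelled Nnmt-OE cells with TGFβ and 2.25 to 2.61 in mock cells with TGFβ, against 1.14 to 1.501 in labelled Nnmt-OE cells and 1.24 to 1.31 in mock cells without it. The ratio of Klf13 to Klf4 counts was 2.54 to 2.74 and 2.00 to 2.62 in the same groups with TGFβ, against 1.25 to 1.504 and 1.04 to 1.26 without it. These ratios describe the changes given above and were not tested. The share of ribosomal protein reads also moved with TGFβ: it was 1.14 to 1.17% in labelled Nnmt-OE and 1.12 to 1.27% in mock cells with TGFβ, against 0.948 to 1.08% and 0.992 to 1.07% without it, and its part in the results was not tested.

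**Figure D3:**
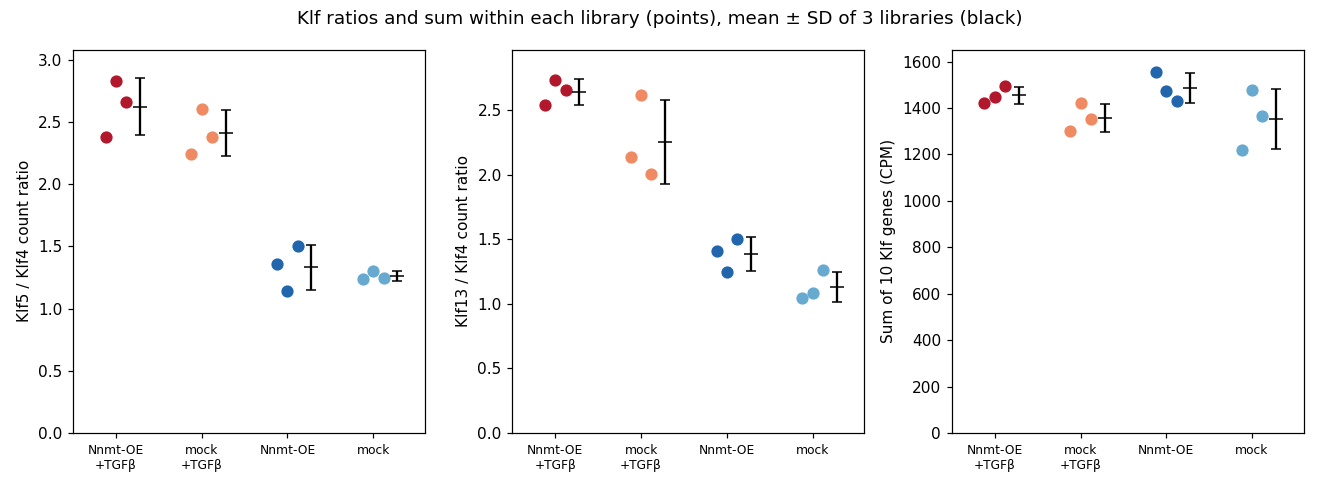
Ratio of Klf5 to Klf4 counts, ratio of Klf13 to Klf4 counts and summed level of the 10 Klf genes in CPM (y axes from 0) in each library (points) of the 4 groups (x axis), with mean ± SD of 3 libraries in black. Both ratios lie higher in every library with TGFβ than in any without, and the sums overlap between treated and untreated cells.

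The rest of the family had few or no reads, apart from Klf11. Klf11, the remaining gene tested, averaged 8.27 CPM and its average log2 fold change with TGFβ was -0.18 ± 0.27 (SE, edgeR adjusted p = 0.809). Klf1, the erythroid factor, and Klf8 had 2 reads each in 12 libraries, and Klf12, Klf14, Klf15 and Klf17 had 0, which allows up to 0.0422 CPM. The Sp factors bind the same GC boxes; of 9 genes, 5 were tested and 0 passed, with a median log2 fold change of -0.14 for TGFβ. Sp1 averaged 276 CPM, Sp3 69.3, Sp8 26.2, Sp2 19.8 and Sp4 8.53 CPM. Sp8 had a log2 fold change of -0.41 ± 0.16 (SE, edgeR adjusted p = 0.134) and Sp4 one of -0.59 ± 0.27 (edgeR adjusted p = 0.241).

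Partners and regulators of the Klf proteins were given by lists, to be read beside the 2.48% of all genes tested that were higher and the 2.6% that were lower for TGFβ on average; 1 gene of a short list is no result about that list. Of 10 corepressor and coactivator genes, 0 passed for TGFβ (median log2 fold change -0.04); Hdac3 and Ep300 had -0.26 and -0.14. Of 6 ubiquitin ligase genes, 0 passed (median -0.06). In the ERK5-MEF2 pathway, which drives Klf2 and Klf4 in endothelium, 1 of 6 tested genes fell, Mef2a, by 0.31 ± 0.07 (SE, edgeR adjusted p = 0.0084). Mef2a averaged 128 CPM in labelled Nnmt-OE and 118 CPM in mock cells with TGFβ, against 152 and 152 CPM without it. Of 12 glucocorticoid and thyroid hormone genes, 1 fell, the glucocorticoid receptor gene Nr3c1, by 0.34 ± 0.09 (edgeR adjusted p = 0.016). Of 14 clock genes tested, 1 fell on average, Per2, by 0.68 ± 0.21 (edgeR adjusted p = 0.0425). Arntl rose in mock cells, with a log2 fold change of 1.23 ± 0.30 (edgeR adjusted p = 0.0227), and had -0.41 ± 0.29 in labelled Nnmt-OE cells. In mock cells 1.43% of all genes tested were called for TGFβ. Arntl did not pass on average, and 0 of the 14 clock genes passed the test of whether the TGFβ effect differed by construct.

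Of 12 tested genes known to be regulated by Klf factors, 2 rose and 1 fell for TGFβ on average. Beside this count and the TGFβ counts of the lists below, 2.48% of all genes tested were higher and 2.6% lower. Acta2, smooth muscle actin, averaged 91.6 ± 16.8 CPM in labelled Nnmt-OE and 58.7 ± 5.82 CPM in mock cells with TGFβ, against 17.4 ± 1.49 and 15.03 ± 2.56 CPM without it (SD, n = 3 each; edgeR adjusted p = 3.12e-16). Tagln, transgelin, rose by a log2 fold change of 1.44 and Ccnd1, cyclin D1, fell by 0.30 ± 0.06 (edgeR adjusted p = 0.000592). In the TGFβ-SMAD list, Pmepa1 and Ccn2 were among the genes that rose (log2 fold changes 0.97 and 0.96), and Smad3, Id2 and Id4 fell by 0.40, 0.50 and 1.07 on the log2 scale. In the immediate-early list, whose genes answer growth signals within minutes as Klf6 and Klf10 can, 2 rose (Ier3 and Ier5) and 3 fell (Egr1, Btg2 and Trib1) of 18 tested. For the construct, 6 of these 18 passed on average, where 0.0698% of all genes tested did, and all 6 were higher in labelled Nnmt-OE cells. They were Egr1 (1.17), Dusp1 (1.13), Ier3 (0.64), Trib1 (0.55), Junb (0.43) and Jun (0.38) on the log2 scale. All lists of this paragraph were drawn up with earlier results of these data known, so their counts are not independent evidence. The immediate-early list's median log2 fold change for the construct was 0.52, against 0.12 for the 10 Klf genes, of which 6 were positive and 0 passed. Klf6 had 0.30 and Klf10 0.15, while Klf4 had -0.10 and Klf5 -0.01.

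**Figure D4:**
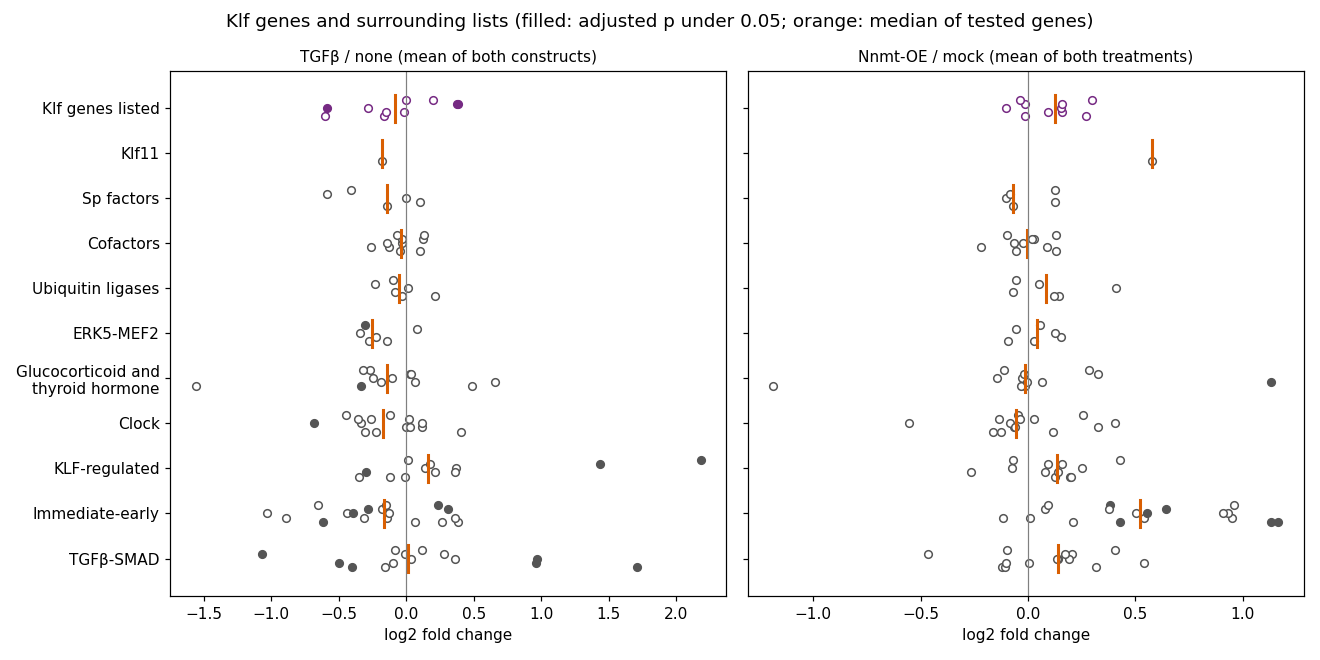
Log2 fold changes (x axis) of the 10 Klf genes and of the tested genes in each surrounding list (rows), for TGFβ against none averaged over constructs (left) and labelled Nnmt-OE against mock averaged over treatments (right). Filled marks passed the adjusted threshold of 0.05, and orange bars are medians; the immediate-early row has 6 filled marks at right, and the Klf row has 3 at left and none at right.

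For the Klf genes that passed a test, the genes with the most similar pattern over the 12 libraries were found by the root mean square difference of mean-centred log2 levels among 8648 genes. They were Cnksr3 (0.119), Auh (0.134) and Atp1b1 (0.135) for Klf4, Cad (0.0842), Rsl1d1 (0.0855) and Mphosph6 (0.0904) for Klf5, and Tns1 (0.0899), Gsto1 (0.0941) and Tmem123 (0.0993) for Klf13. These differences describe likeness in 12 libraries.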

How the data were processed

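RNA from 12 libraries (4 groups of 3) was read with QuantSeq 3′ FWD from 100 ng each, per the labels' protocols. The authors deposited 1 table of raw gene counts. The submitters' processing notes name STAR, HTSeq (no versions) and GRCh38, although the identifiers are mouse Ensembl; which mouse build, annotation and strand setting applied is not given in the sources used here. Symbols matched 55141 of 55487 identifiers (99.4%, GENCODE M21). The 5 HTSeq totals were left out; reads outside genes were 26.4 to 28.8% and ambiguous reads 0.603 to 0.679%.

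Groups follow the titles. All 12 libraries entered 1 fit in edgeR 4.0.16 under R 4.3.3, with TMM factors of 0.981 to 1.01 and filterByExpr (minimum count 10, minimum total 15), which removed 42590 genes and left 12897. The robust quasi-likelihood F test was used, and p-values were adjusted by Benjamini-Hochberg across the 12897 genes (threshold 0.05). SE is the log2 fold change over the root of F. The contrasts were TGFβ against none and labelled Nnmt-OE against mock, each within groups and averaged, and their interaction. The common dispersion was 0.0331, and the median 95% half-width was 0.35 on the log2 scale for genes of 10 CPM or more. Depth limits Klf2. Intervals cover counting and replicate error as the model sees it. Similar patterns used log2(CPM + 0.5).

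The members and lists were chosen with earlier results of these data known. By rule, the text names all 10 members, Nnmt, up to 4 genes per list, ranked by adjusted p for average TGFβ, those called in any contrast, and 3 genes of similar pattern per called member; some of these are not reported here. Replicate pairs differed beyond sampling noise (chi-square per degree of freedom 4.95 to 18.2), so none was counted as a duplicate. Scripts were tested on simulated counts. Alternatives were RLE, library totals, no filter, a stricter one (50 counts in all and 1 CPM in 3 libraries), a replicate block, each library left out, the 3 libraries that stand apart left out, the groups compared only, limma-voom 3.58.1 and DESeq2 1.42.0. Promoters are RefSeq's, GRCm38.p6.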

Additional observations from a re-analysis of the deposited data

How the results depend on the processing

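Of 70 results for the 10 Klf genes, 6 were called; over 123 alternatives these kept direction, and 10 alternatives lost the call, all for Klf4 or Klf5 with TGFβ in labelled Nnmt-OE cells. Klf4 in mock cells and the average effects of Klf4, Klf5 and Klf13 stayed called under every alternative run (highest edgeR, limma or DESeq2 adjusted p = 0.0373, 0.000422, 0.0121 and 0.0172). Of 1309 alternatives of uncalled results 6 gained a call: 5 were Klf13 in labelled Nnmt-OE cells with TGFβ, and 1 was Klf6 on average for the construct with DESeq2 (adjusted p = 0.00726). Under the main fit and its alternatives, the median over genes lay at most 0.0272 from 0 on the log2 scale in any comparison. Counts of genes called moved as follows. Without the filter, labelled Nnmt-OE against mock had 13 genes untreated (5 with it) and 19 on average (9 with it). With the compared groups alone, TGFβ gave 92 genes in mock (184 in the full fit) and 351 in labelled Nnmt-OE cells (180), and the construct gave 3 untreated. DESeq2 gave 306 genes for TGFβ in mock, 295 in labelled Nnmt-OE cells and 26 on average for the construct. Leaving out 1 library at a time gave 97 to 305 genes for TGFβ in labelled Nnmt-OE cells, 98 to 188 in mock cells and 473 to 649 on average. For the construct it gave 1 to 3 genes with TGFβ, 3 to 6 without and 5 to 9 on average, and 0 for the interaction. The cause was not tested. No pairing by the numbers in the labels was seen. Same-numbered libraries had correlations of -0.10 to 0.05 over 18 pairs, and 4 of 12 correlated best with their own number. With 3 libraries per group these values cannot show that no pairing existed. With a replicate block, 626 genes were called for average TGFβ, 170 in mock and 168 in labelled Nnmt-OE cells, and the Klf4 effect in mock was -0.65 (edgeR adjusted p = 0.00648). The block changed no Klf call. DESeq2 gave no adjusted p for Klf2 in 4 comparisons.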
